A study of Mus musculus with 12 samples.

Results

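The metabotropic glutamate receptors are described here by 7 of their genes, Grm2, Grm3, Grm4, Grm5, Grm6, Grm7 and Grm8, out of 24209 gene symbols in the count tables. They were taken by gene symbol and not by any measured value, though earlier results of these data were known. They occupy 9 of the 32850 RefSeq entries. RNA was sequenced from both hippocampi of 12 male C57BL/6 mice, in 2 experiments of 6 mice. Each mouse received, at 10 weeks of age, AAV5 vectors whose human synapsin promoter limits the transgene to neurons, and tissue was taken 10 weeks later. In the miR-9 experiment, 3 mice received GFP-miR-9sp and 3 received GFP Ctrl, and in the miR-34 experiment 3 mice received GFP-miR-34sp and 3 others received GFP Ctrl. A sponge (sp) is a transcript whose 8 imperfect target sites bind a miRNA and so keep it from its own targets, and GFP Ctrl is the vector without such sites. The labels name neurons, but whole hippocampal tissue was extracted, so glia and neurons that carried no vector are in every sample, and fewer cells of a type cannot be told apart from less RNA per cell.

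Metabotropic glutamate receptors are G protein-coupled receptors that bind glutamate in a large extracellular domain, and through which the transmitter modulates synapses more slowly than through its ion channels. Group I, here Grm5, lies mostly at postsynaptic sites and signals through Gq proteins and phospholipase C. Group II, Grm2 and Grm3, and group III, Grm4, Grm6, Grm7 and Grm8, signal through Gi and Go proteins that lower adenylyl cyclase activity, and many of them restrain transmitter release from nerve terminals. In the hippocampus these receptors are known for their part in synaptic plasticity.

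The sequences that the comparison turns on are those of the inhibited miRNA families and of their possible sites in the receptor mRNAs. The miR-34 family also includes miR-34c, at which the sponge was aimed and whose sequence is not shown. In the mature sequences from RefSeq, the capitals mark the seed, bases 2 to 8, which is shared by miR-34a-5p and miR-34b-5p.
miR-9-5p: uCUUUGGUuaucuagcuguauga
miR-34a-5p: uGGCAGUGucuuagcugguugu
miR-34b-5p: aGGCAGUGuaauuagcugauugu
In the 3′ untranslated regions of the 7 genes in GENCODE M1, 481 bases long in Grm2 and 4038 in Grm5, no match to the miR-9 seed was found. A site for miR-34 was found in 2 of the 7 genes. In Grm7 it was an 8mer, the complement of the seed followed by A, 211 bases into a region of 1163 bases (mm9, chr6:111516262-111516288, plus strand). In Grm8 it was a 7mer-A1, the complement of seed bases 2 to 7 followed by A, 115 bases into a region of 579 bases (mm9, chr6:27225570-27225595, minus strand). The capitals mark the match.
Grm7: ttggcatcagCACTGCCAtcttggctg
Grm8: tgaacatgagACTGCCAaaacgtact
Among 10289 genes tested in the miR-34 experiment that have such a region, 5.53% held an 8mer for miR-34 and 21.7% held any of the 3 kinds of site (8mer, 7mer-A1, or the complement of the whole seed without the A). In the miR-9 experiment 20.9% of genes held a site for miR-9. A match of letters is not evidence that the miRNA binds there.

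The values are raw read counts per RefSeq entry. Mice of the miR-9 experiment had 17279620 to 24428477 counted reads each, and those of the miR-34 experiment 11029604 to 16934133. Levels of different genes were compared as reads per kilobase of transcript and of 1000000 counted reads (RPKM), and a gene was compared between mice as reads per 1000000 counted reads (CPM). The members with 1 entry each are Grm2 (NM_001160353), Grm3 (NM_181850), Grm6 (NM_173372), Grm7 (NM_177328) and Grm8 (NM_008174), in which the count of the gene and of its entry are the same. Grm4 and Grm5 each have 2 entries.

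Grm5 was counted on 1 of its 2 entries only. The longer, NM_001143834 (8524 bases), held 51 to 130 reads per mouse, and the shorter, NM_001081414 (8428 bases), held 0 reads in all 12 mice. In the miR-9 experiment the longer entry held 130, 118 and 97 reads in the GFP Ctrl mice and 82, 82 and 77 in the GFP-miR-9sp mice. In the miR-34 experiment it held 77, 61 and 51 reads in the GFP Ctrl mice and 96, 65 and 57 in the GFP-miR-34sp mice. A count of 0 against 51 reads allows the shorter entry a share of the counted reads of up to 5.88%, and against 130 reads of up to 2.31%, with counting error alone considered. This is no bound on the share of the shorter form. If reads shared by both entries were left out or given to the longer one, the shorter could be near 0 even at a high share. That would depend on how reads across the exon join found in the shorter form alone were counted.

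The 2 entries of Grm5 differ in length by 96 bases. In GENCODE M1 the forms Grm5-203 and Grm5-202 differ by 1 coding exon of that length, exon 8 of the longer form (mm9, chr7:95264703-95264798, plus strand), which is shown because it is the stretch that could tell the entries apart.
Grm5 exon 8: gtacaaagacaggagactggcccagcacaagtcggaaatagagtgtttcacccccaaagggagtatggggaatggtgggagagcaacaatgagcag
Spread over the whole entry, the reads of Grm5 gave a level of 0.471 to 0.665 RPKM with a median of 0.612. Spread over the 96 bases alone, the same reads would amount to 41.8 to 59.1 RPKM with a median of 54.3. Reads that overlap the exon only in part are not allowed for, so these levels would be too high. Where the reads lay, and how reads shared by both entries were counted, are not given in the sources used here.
Another gene with several entries, Rbfox3, which encodes the neuronal marker NeuN and was named after its values were seen, had at most 3 reads per mouse on 6 entries. Of coding entries whose gene has 1 entry, 15.3% were at 0 in all 12 mice, against 43.1% for genes with 2 entries and 67.8% for genes with 3 or more. The level of Grm5 was therefore not ordered with the other receptors.

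Grm4 was counted almost wholly on NM_001291045 (3987 bases), with 70 to 335 reads per mouse, against 0 to 4 on NM_001013385 (3204 bases). The shorter entry's share of the gene's reads was 0.687% ± 0.468 (SD, n = 3) after GFP-miR-9sp and 0.898% ± 0.615 (SD, n = 3) in the GFP Ctrl mice of that experiment (exact two-sided permutation test, p = 0.7, where 0.1 is the smallest p that 3 mice against 3 allow). In the miR-34 experiment the share was 0.444% ± 0.770 (SD, n = 3) in GFP Ctrl mice and 0.275% ± 0.477 (SD, n = 3) in sponge mice (exact permutation test, p = 1). These shares rest on 11 reads in 6 mice and on 2 reads in 6 mice, and a difference was not detectable at this depth.

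**Figure D1:**
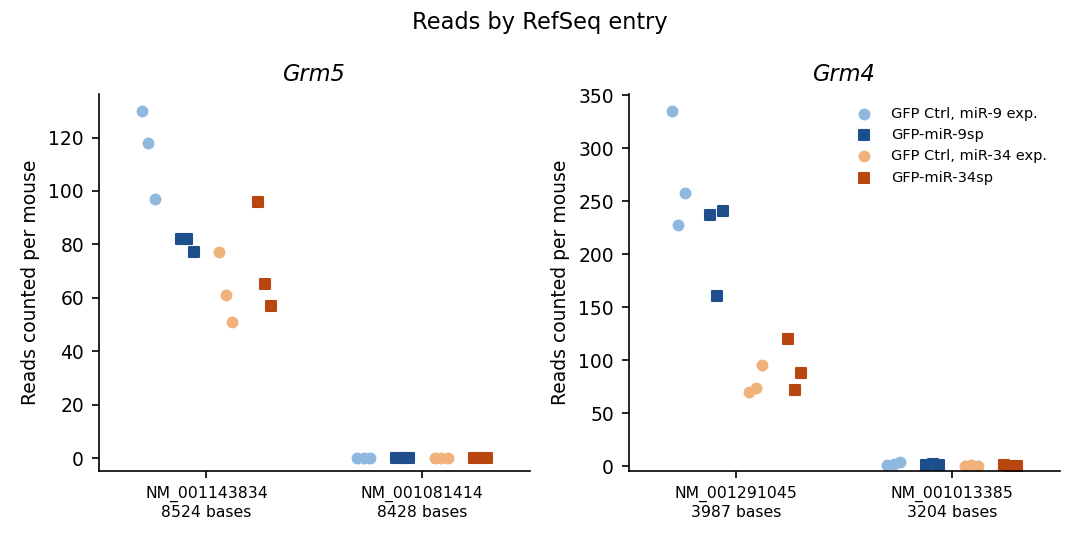
Reads counted per mouse (vertical axis, linear) on each RefSeq entry of Grm5 and Grm4 (horizontal axis, with the length of the entry), each point being 1 mouse, circles GFP Ctrl and squares sponge. The shorter entry of Grm5 is at 0 in all 12 mice and that of Grm4 at 0 to 4 reads.

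Of the receptors ordered by level per length, Grm3, Grm7 and Grm2 lay close together and far above Grm8 and, as counted, Grm4. Grm4 has 2 entries, and how reads shared by both were counted is not given, so its level may be too low. Grm3, a group II receptor that astrocytes as well as neurons express, had a median level of 30.7 RPKM over the 12 mice, with a range of 28.0 to 34.5. Grm7, the group III receptor of nerve terminals with a low affinity for glutamate, had a median of 25 RPKM (23 to 26.3). Grm2, the other group II receptor, had a median of 24.3 RPKM (19.1 to 28.1). Grm8 followed at 4.17 RPKM (2.37 to 5.68) and Grm4, on its longer entry, at 2.18 RPKM (1.29 to 3.44), both group III receptors of nerve terminals.

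Grm3 was above Grm7 in 12 of 12 mice, by 1.11 to 1.38 times. Grm7 was above Grm2 in 6 of 12 mice, with ratios of 0.893 to 1.23, and their order went mostly by experiment. In the miR-9 experiment Grm7 was the higher in 1 of 3 sponge mice and 0 of 3 GFP Ctrl mice. In the miR-34 experiment it was the higher in 3 of 3 sponge mice and 2 of 3 GFP Ctrl mice. Grm2 was above Grm8 in 12 of 12 mice by 4.66 to 8.06 times, and Grm8 above Grm4 in 12 of 12 mice by 1.41 to 2.65 times. Among 15996 genes with 1 entry and any reads, 83.3% had a lower mean level than Grm3, 79.8% than Grm7, 79.6% than Grm2, 50.9% than Grm8 and 45% than Grm4. The place of Grm4 below Grm8, and its share here, take its reads as drawn from the whole of its longer entry, which was not tested.

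Grm6, the receptor by which ON bipolar cells of the retina sense glutamate, was at the limit of detection. It had 5 reads in all, in 5 of 12 mice and never more than 1 in a mouse. A signal of 3 reads, below which detection is uncertain, was 0.123 to 0.272 CPM at these depths. Of the genes that work with Grm6 in those retinal cells, Trpm1, the channel that it closes, had 0 to 5 reads and Lrit3 0 to 4, whereas Nyx had 19 to 39, Gpr179 9 to 33 and Rgs11 190 to 725.

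**Figure D2:**
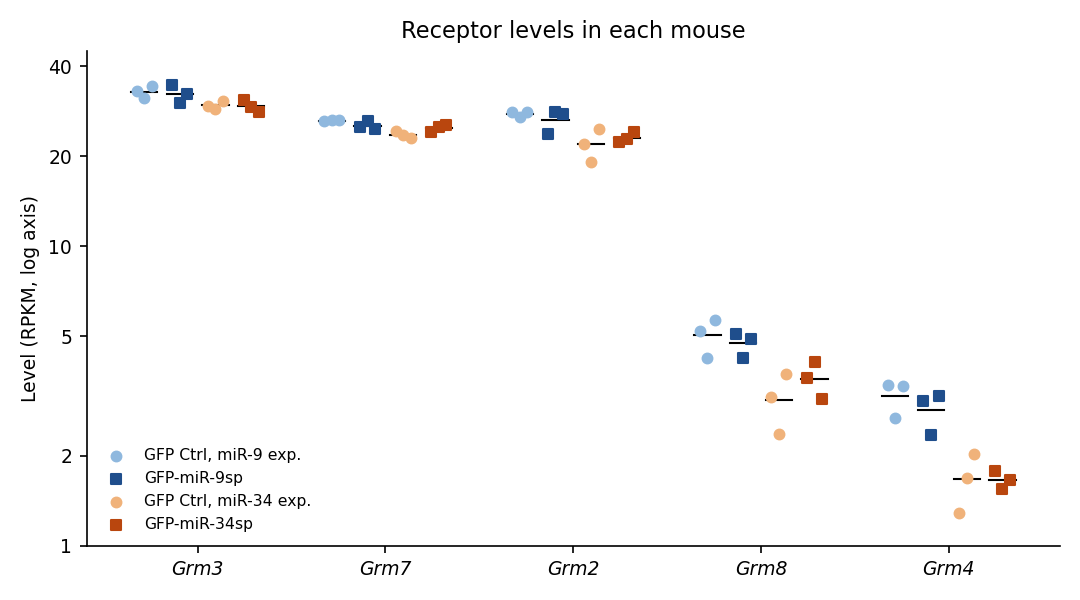
Level of 5 receptor genes in RPKM (vertical axis, logarithmic) for each mouse, with circles for GFP Ctrl, squares for sponge and a line at the mean of each group of 3. Grm3, Grm7 and Grm2 lie between 19.1 and 34.5 RPKM, and Grm8 and Grm4, the latter on its longer entry as counted, between 1.29 and 5.68.

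The receptors differed in how much they varied between mice of the same group. Grm7 varied least, with a coefficient of variation of 0.436% to 3.04% in the 4 groups, where counting alone gives 2.05% to 2.89%. Its 3 GFP Ctrl mice of the miR-9 experiment held 109, 110 and 110 CPM. Grm3 varied by 3.06% to 6.55% and Grm2 by 2.0% to 12.7%. Grm8 and Grm4 varied most, by 9.54% to 22.4% and 7.29% to 22.1%, where counting alone gives 5.0% to 8.5% and 6.02% to 11.2%. Mouse 4 of the GFP Ctrl mice in the miR-34 experiment was the lowest in its group for both Grm2 (63.4 CPM) and Grm8 (8.70 CPM), and mouse 8 the highest for Grm2 (81.9 CPM), Grm4 (8.07 CPM) and Grm8 (13.8 CPM).

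Grm4 and Grm8 also stood apart by experiment. Grm4 was at 9.43 to 13.8 CPM in the 6 mice of the miR-9 experiment and at 5.13 to 8.07 CPM in the 6 of the miR-34 experiment, and Grm8 at 15.6 to 20.9 CPM and 8.70 to 15.1 CPM. In neither gene did the experiments overlap. Of 12835 genes, 13.1% likewise had all mice of the miR-9 experiment above all of the miR-34 experiment, and 22.6% did not overlap in either direction. In the GFP Ctrl mice, Grm4 stood at 3.17 ± 0.437 RPKM (SD, n = 3) in the miR-9 experiment and 1.66 ± 0.369 RPKM (SD, n = 3) in the miR-34 experiment, and Grm8 at 5.04 ± 0.737 and 3.08 ± 0.688 RPKM (SD, n = 3 each). The ranges of Grm2, Grm3, Grm5 and Grm7 overlapped between experiments. The labels of the miR-9 counts alone contain the word totRNA, and a difference in library preparation cannot be told apart from a difference between the sets of mice.

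Whether inhibiting miR-9 in neurons altered the receptor mRNAs was asked by comparing GFP-miR-9sp with GFP Ctrl mice. Of the 7 genes, 6 had enough reads to be tested, 0 passed an adjusted p of 0.05 (edgeR quasi-likelihood test, Benjamini-Hochberg over all genes), and all 6 log2 fold changes were below 0, by 0.0010 to 0.28. Over all 13045 genes tested, 0 genes (0%) passed. The median log2 fold change was −0.052 for the 6 receptors and −0.00062 for all genes. Without adjustment, Grm5 alone of the 6 had a p under 0.05, against 4.73% of all genes, or 2.26% counted as lower. With total counts only as the scaling, 3.71% of genes were lower and 1.46% higher at that limit, against 2.26% and 2.47%. DESeq2 called 2 genes in all, and no receptor among them.

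Grm5, the postsynaptic group I receptor, had the lowest ratio. It was at 5.32, 5.50 and 5.10 CPM in the GFP Ctrl mice and at 4.18, 4.75 and 4.02 CPM after GFP-miR-9sp. All 3 sponge mice were thus below all 3 GFP Ctrl mice, as was the case for 7.86% of all genes. The GFP Ctrl mice varied by 3.73%, where counting alone gives 9.3%, and the sponge mice by 8.85%, where it gives 11.2%. Both groups thus lay closer together than their reads allow one to rely on. The log2 fold change was −0.28 ± 0.12 (SE), with a 95% interval of −0.56 to −0.0037 (adjusted p = 0.97 in edgeR). With the unpaired two-sided test that the methods describe, which takes an unadjusted p under 0.05 and a ratio beyond 1.2 in either direction, Grm5 passed, as did 185 genes in all. Over 12 alternatives, the unadjusted p of Grm5 was under 0.05 in 4 and above it in 8, among them DESeq2, the fit without a read limit, 1 model of all mice and 5 of the 6 fits with 1 mouse left out. Those 6 gave log2 fold changes of −0.36 to −0.23. The measure rests on 77 to 130 reads per mouse on 1 entry.

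The group II receptors did not pass the test. Grm3 was at 117, 111 and 121 CPM in the GFP Ctrl mice and at 122, 107 and 114 CPM after GFP-miR-9sp, and the groups overlapped. Its ratio had a 95% interval of 0.927 to 1.08. Grm2 was at 93.3, 90.0 and 93.1 CPM in GFP Ctrl and at 78.8, 93.3 and 92.0 CPM after GFP-miR-9sp, so that mouse 17 alone was low. The log2 fold change of Grm2 was −0.043 ± 0.066 (SE, adjusted p = 0.973 in edgeR), and without that mouse it was 0.043.

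Of the group III receptors, Grm7 was measured most closely. It was at 109, 110 and 110 CPM in the GFP Ctrl mice and at 104, 109 and 103 CPM after GFP-miR-9sp. The ratio was 0.978 with a 95% interval of 0.918 to 1.04 (adjusted p = 0.972 in edgeR). Grm4 was at 13.8, 10.7 and 13.8 CPM in GFP Ctrl and at 12.1, 9.43 and 12.6 CPM after the sponge, with a ratio of 0.909 (0.746 to 1.11). Grm8 was at 19.1, 15.6 and 20.9 CPM in GFP Ctrl and at 18.7, 15.6 and 18.0 CPM after the sponge, with a ratio of 0.958 (0.809 to 1.13). In both genes the groups overlapped, and the intervals were wider than that of Grm7. Grm6 was not tested.

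In the miR-34 experiment, too, no receptor gene passed. Of 6 genes tested 0 had an adjusted p under 0.05, where 8 of 12492 genes (0.064%) did, and 0 of 6 had an unadjusted p under 0.05, where 6.43% of genes did, counting 3.72% that were lower. Fitted by RefSeq entry, 0 of 6 receptor entries passed, where 0.0313% of 12787 entries did. The log2 fold change was above 0 in 4 receptors and below 0 in 2, with a median of 0.037 against −0.00067 over all genes. No group of sponge mice stood clear of its GFP Ctrl mice, whereas the groups did not overlap in 11.6% of all genes (sponge mice above in 6.2%).

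Grm8 and Grm7 hold the sites for miR-34. Grm8 was at 11.5, 8.70 and 13.8 CPM in the GFP Ctrl mice and at 13.3, 15.1 and 11.3 CPM after GFP-miR-34sp. Mouse 18 of the sponge mice was the highest of the 6 and mouse 4 of the GFP Ctrl mice the lowest, while the other 4 mice overlapped. The log2 fold change of Grm8 was 0.22 ± 0.16 (SE), with a 95% interval of −0.13 to 0.57 (adjusted p = 0.908 in edgeR), and it was 0.069 to 0.37 when 1 mouse was left out. Grm7 was at 101, 98.1 and 96.2 CPM in the GFP Ctrl mice and at 100, 105 and 106 CPM after GFP-miR-34sp. Sponge mouse 13 was thus below the highest GFP Ctrl mouse. Its log2 fold change was 0.067 ± 0.043 (SE), from −0.026 to 0.16 at 95% (adjusted p = 0.88 in edgeR). Grm2, which holds no site, had nearly the same log2 fold change, 0.066 ± 0.076 (SE). The order of Grm7 and Grm2 turned when 1 mouse was left out (0.050 and 0.16 without GFP Ctrl mouse 8). The other tested receptors without a site were at −0.015 (Grm3), 0.0077 (Grm4) and −0.00030 (Grm5). The part of the sites in these values was not tested.

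The values of Grm7 and Grm8 lay within those of other genes with and without a site. The 569 genes with an 8mer for miR-34 had a median log2 fold change of −0.0040 after GFP-miR-34sp, with quartiles of −0.065 and 0.059, and 8055 genes without a site had a median of −0.0023, with quartiles of −0.070 and 0.058. Grm7 was above 77.7% of the genes with an 8mer and above 78.1% of those without a site. Grm8 was above 95.5% of the 2234 genes with any site and above 94.6% of those without one.

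The other receptors did not pass either. Grm2 was at 73.2, 63.4 and 81.9 CPM in GFP Ctrl and at 74.2, 75.7 and 79.8 CPM after the sponge (ratio 1.05, 95% interval 0.932 to 1.18). Grm3 was at 104, 102 and 108 CPM in GFP Ctrl and at 109, 103 and 99.1 CPM after the sponge (ratio 0.99, 0.917 to 1.07). Both groups overlapped in each gene. Grm5 was at 5.64, 5.53 and 4.33 CPM in GFP Ctrl and at 5.67, 5.58 and 4.27 CPM after the sponge, 1 mouse of each group being low. The ratio of Grm5 was 1.00 with a 95% interval of 0.769 to 1.30. Grm4 was at 5.13, 6.80 and 8.07 CPM in GFP Ctrl and at 7.15, 6.18 and 6.60 CPM after the sponge, and its ratio of 1.01 had an interval of 0.779 to 1.30.

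**Figure D3:**
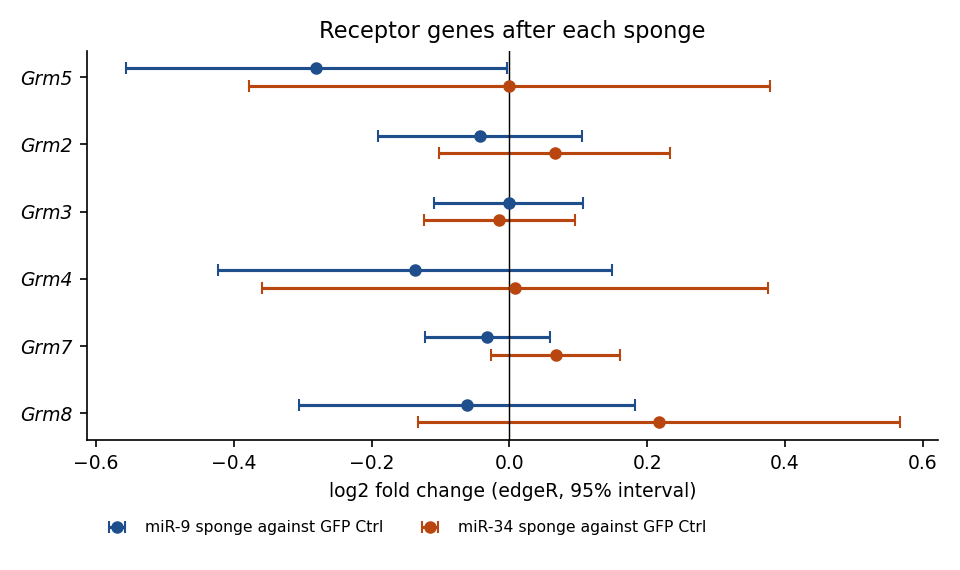
Log2 fold change of sponge against GFP Ctrl (horizontal axis, edgeR) for the 6 receptor genes tested, with bars for the 95% interval, blue for the miR-9 and red for the miR-34 experiment. All intervals include 0 except that of Grm5 in the miR-9 experiment, which ends at −0.0037 and has an adjusted p of 0.97.

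**Figure D4:**
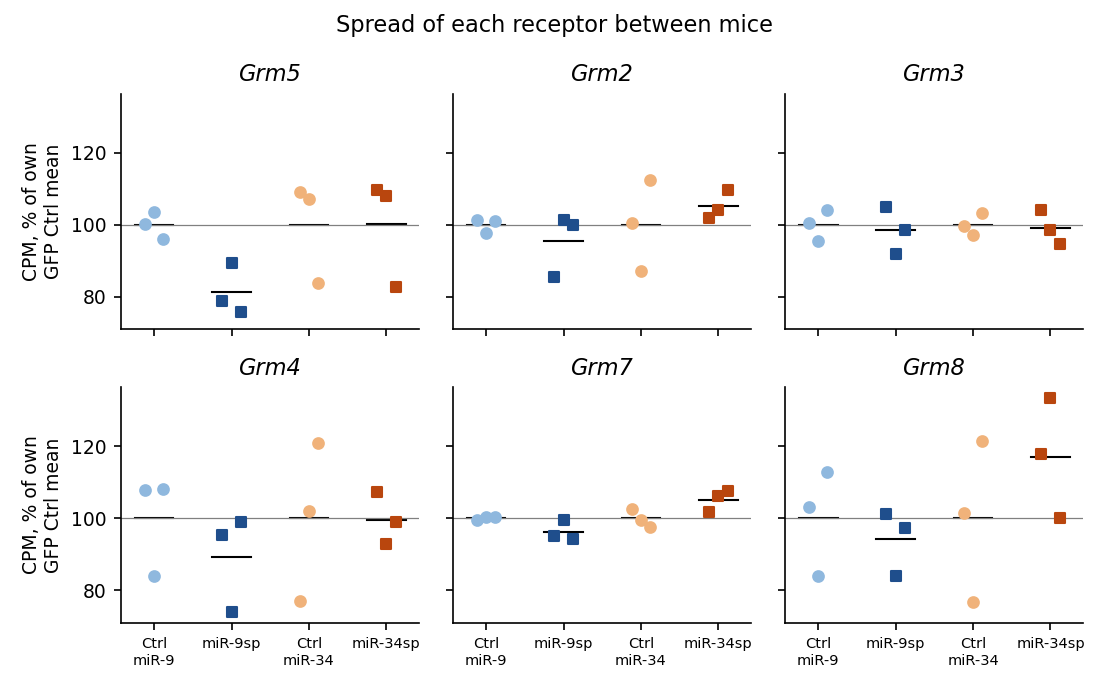
CPM of each receptor gene in each mouse as a percentage of the mean of the GFP Ctrl mice of its own experiment (vertical axis, linear, not starting at 0), with a line at each group's mean. Grm7 and Grm3 keep the mice close together, Grm4 and Grm8 spread widest, and the 3 GFP-miR-9sp mice lie below the 3 GFP Ctrl mice in Grm5.

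The difference between the sponge effects, tested as an interaction in 1 model of all 12 mice, passed in 0 of the 6 receptors and in 0 of 12835 genes (0%), with 6.1% of genes at an unadjusted p under 0.05. DESeq2 called 5 genes, with no receptor among them. The log2 effect of the miR-9 sponge minus that of the miR-34 sponge was −0.28 in Grm5 (95% interval −0.72 to 0.16), −0.28 in Grm8 (−0.73 to 0.17) and −0.098 in Grm7 (−0.22 to 0.022). In Grm7 the adjusted p was 0.828 in edgeR and 0.725 to 0.999 among the alternatives.

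The proteins with which the receptors signal were followed in a list of 56 genes. In edgeR, 0 of 52 tested passed after GFP-miR-9sp and 0 of 51 after GFP-miR-34sp. Over all genes these shares were 0% and 0.064%. At an unadjusted p under 0.05, 7 of the list were higher and 2 lower after GFP-miR-9sp, against 2.47% and 2.26% of all genes. After GFP-miR-34sp 1 was higher and 3 were lower, against 2.71% and 3.72% of all genes. In sum the list was at 31351 to 32483 CPM after GFP-miR-9sp and 29851 to 31314 CPM in GFP Ctrl, without overlap. Among single genes of that experiment, 3.11% stood higher without overlap. The sums overlapped in the miR-34 experiment, and Homer2 was at 0 in every mouse. The median log2 fold change of the list was 0.024 after GFP-miR-9sp and −0.0027 after GFP-miR-34sp, against −0.00062 and −0.00067 over all genes. By role, the median of the list ran from 0.0025 (9 genes of glutamate transport and synthesis) to 0.088 (5 regulators of G protein signalling) after GFP-miR-9sp.

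After GFP-miR-9sp the highest of the list were Rgs14, Adcy1 and Prkca. Rgs14, which speeds the end of Gi signals, was at 92.8, 103 and 97.0 CPM in GFP Ctrl and at 113, 126 and 105 CPM after the sponge (log2 fold change 0.26 ± 0.071 SE, adjusted p = 0.97 in edgeR). Adcy1, the calcium-stimulated adenylyl cyclase, was at 1734, 1631 and 1742 CPM and at 1951, 2247 and 1791 CPM (0.25 ± 0.077 SE). Prkca, a protein kinase C downstream of group I receptors, had a log2 fold change of 0.24 ± 0.086 (SE). In all 3 the sponge mice were above the GFP Ctrl mice without overlap, as in 3.11% of all genes. In the same comparison 7 of 7 markers of dentate gyrus granule cells were above 0, with a median log2 fold change of 0.24, none of them called and none at 0, and their sums overlapped (344 to 537 CPM after the sponge and 302 to 457 CPM in GFP Ctrl). The sums of the 5 markers of CA2 and CA3 pyramidal cells overlapped too (220 to 259 CPM after the sponge and 220 to 257 CPM in GFP Ctrl). Of these, 3 of 4 tested were above 0, with none called and Spock1 at 0. The lowest of the signalling list were Slc17a6, a vesicular glutamate transporter (−0.31 ± 0.12 SE), Plcb4, a phospholipase C (−0.25 ± 0.10 SE), and Adcy8, another calcium-stimulated cyclase (−0.13 ± 0.34 SE), with adjusted p of 0.97 to 0.981 in edgeR. Adcy8 has 2 entries, means of 0.829 CPM after the sponge and 0.909 CPM in GFP Ctrl, and overlapping groups. Beside these 3 lowest genes, 4 of 4 tested markers of thalamus and habenula, of 9 listed, were below 0, with a median of −0.23, none called and Tac2 at 0, and their sums overlapped (43.1 to 56.8 and 40.2 to 72.7 CPM). The part of any of these marker lists in these values was not tested.

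After GFP-miR-34sp Rgs14 was the lowest of the list. It was at 127, 131 and 115 CPM in GFP Ctrl and at 94.2, 105 and 96.2 CPM after the sponge, without overlap, as in 5.43% of all genes. The log2 fold change was −0.34 ± 0.060 (SE, adjusted p = 0.0995 in edgeR), and the adjusted p was 0.000977 in DESeq2 and 0.000178 in edgeR without a read limit. In edgeR the adjusted p was 0.351 at a limit of 100 reads and 0.449 in 1 model of all 12 mice. With 1 mouse left out it was 0.0599 to 0.623, so the call depended on the setting. Rgs14 is known for its abundance in CA2 pyramidal cells. The 5 markers of CA2 and CA3 pyramidal cells summed to 229 to 249 CPM in these sponge mice and 252 to 264 CPM in GFP Ctrl, and their part in the value of Rgs14 was not tested. Adcy5, another adenylyl cyclase, was at −0.16 ± 0.045 (SE, adjusted p = 0.49 in edgeR) and Plcb1, a phospholipase C of group I signalling, at −0.17 ± 0.16 (SE). Plcb1 has 2 entries, means of 3.43 CPM after the sponge and 3.86 CPM in GFP Ctrl, and overlapping groups. Of 7 tested markers of striatum, 5 were below 0, with a median of −0.29, none called and none at 0 in every mouse, and their sums overlapped (106 to 122 CPM after the sponge and 120 to 185 CPM in GFP Ctrl). Their part in the value of Adcy5 was not tested. The highest were Pick1 (0.28 ± 0.30 SE), a scaffold that binds the tail of Grm7, Dlgap1, a postsynaptic scaffold (0.23 ± 0.25 SE), and Rgs7, a regulator of Gi and Go signals (0.21 ± 0.33 SE), all of which have several entries, means under 6 CPM and overlapping groups.

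**Figure D5:**
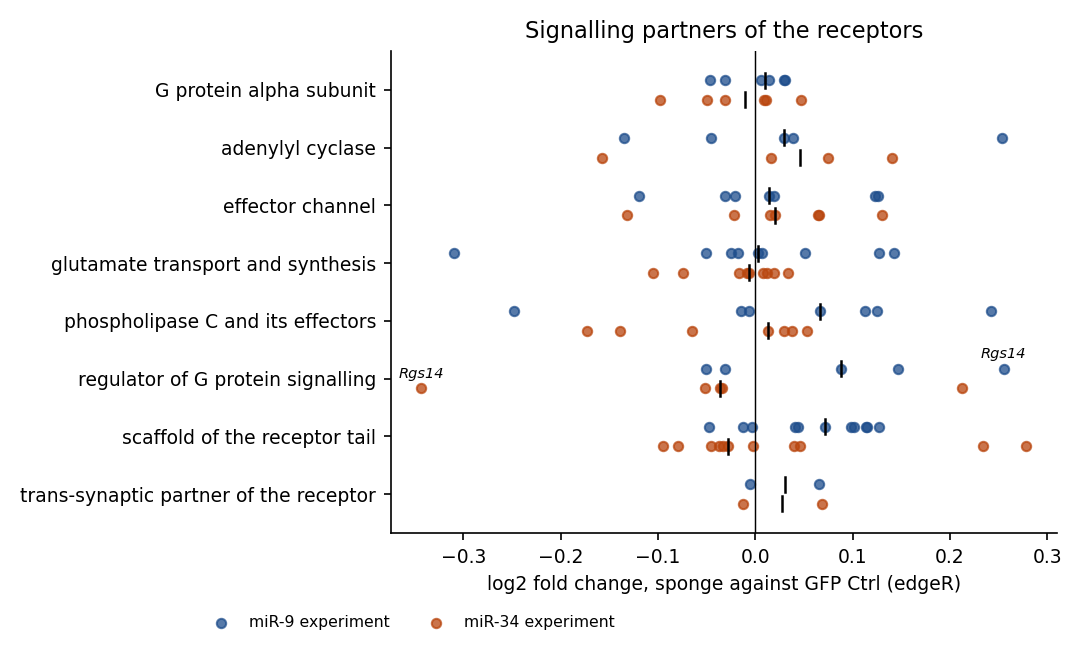
Log2 fold change of sponge against GFP Ctrl (horizontal axis, edgeR) for the tested genes of the signalling list, 1 point per gene, by role, with a black line at the median of each role, blue for the miR-9 and red for the miR-34 experiment. Rgs14 lies at 0.26 in the miR-9 and at −0.34 in the miR-34 experiment, and no gene of the list passed the adjusted test in edgeR.

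The hippocampal tissue held the cell types that carry these receptors. Summed marker levels over the 12 mice were 2314 to 2601 CPM for neurons, 2222 to 2601 for astrocytes, 592 to 680 for microglia and 302 to 537 for dentate gyrus granule cells. The study describes GFP in neurons of the whole hippocampus, most markedly in the dentate gyrus. Of all single genes, 7.86% were lower in sponge mice without overlap in the miR-9 experiment, and 5.43% in the miR-34 experiment. In the miR-9 experiment the 8 microglial markers summed to 610 to 648 CPM after GFP-miR-9sp and 661 to 680 in GFP Ctrl, with 7 of 8 log2 fold changes below 0, none of them called and no marker at 0. In the miR-34 experiment the 9 astrocyte markers summed to 2358 to 2463 CPM after the sponge and 2499 to 2601 in GFP Ctrl, with 7 of 8 tested below 0, none called and none at 0, and Grm3, the receptor shared with astrocytes, had a ratio of 0.99. Of the markers of CA2 and CA3 pyramidal cells, which were lower in sum in the same mice, 3 of 3 tested were below 0, none was called and Spock1 was at 0. The 13 choroid plexus markers summed to 83.6 to 170 CPM after GFP-miR-34sp and to 677 to 2477 CPM in GFP Ctrl, with 11 of 11 tested below 0, 3 of them called and Folr1 at 0. In the miR-9 experiment they overlapped (64.2 to 940 CPM and 141 to 786 CPM). The part of these markers in the receptor values was not tested.

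Genes whose level moved most like each receptor were taken as a description, over 12 mice and 8764 genes with more than 100 reads, from log2 CPM after subtracting the mean of the mouse's own group. The mice share library depth and composition, and no p is attached. Each gene named is the highest or next of 8764, so a high r can follow from the choice alone. The spread of Grm7 between mice (0.436% to 3.04%) was about that of counting (2.05% to 2.89%), which leaves little variation for it to share. Grm7 was most like Fnip1 (Pearson r = 0.965, Spearman rho = 0.972, r = 0.952 without the 2 mice farthest from the median) and Rab40b (r = 0.896, rho = 0.923, 0.815). Grm8 was most like Prkar2b, a regulatory subunit of protein kinase A (r = 0.948, rho = 0.965, 0.905), and Klf5 (r = 0.940, rho = 0.951, 0.957). Grm3 was most like Sh3bgrl2 (r = 0.934, rho = 0.923, 0.894) and Plekhb2 (r = 0.932, rho = 0.916, 0.902). Grm2 was most like Ctdp1 (r = 0.893, rho = 0.818, 0.788) and Snrpc (r = 0.881, rho = 0.776, 0.714). Among the 15 pairs of the receptors themselves, r ran from −0.794 between Grm4 and Grm7 (rho = −0.825, and −0.615 without the 2 farthest mice) to 0.726 between Grm3 and Grm8 (rho = 0.622, and 0.755).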

How the data were processed

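Polyadenylated RNA from hippocampi of 12 mice was sequenced as 50 bp single end reads, in 4 groups of 3. The authors deposited raw counts per RefSeq entry, with its length. The methods name mm9, while the submitters' processing notes list STAR and mm10. The counting tool and the rule for shared reads are not given in the sources used here. The labels name the experiment of one GFP Ctrl set only, and the other was given to the miR-9 experiment by exclusion. Whether mice of a group differ in litter or batch is not labelled. Replicates were checked, and no library was a copy of another. Mature miRNAs, which the sponges bind, were not measured, so the inhibition itself was not checked here. Precursor entries, which cannot show it, held few reads (Mir9-2 13 to 30, Mir9-1 1 to 11, Mir9-3 0 to 2, Mir34c 0 to 1, Mir34a and Mir34b 0). The paper reports that probable targets rose against all other genes after the miR-9 sponge. A similar trend after the miR-34 sponge did not reach significance there.

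Entries were joined to symbols (98.7%) and summed by gene. Genes with a mean above 10 scaled reads were tested with edgeR 4.0.16 (R 4.3.3, TMM, quasi-likelihood, Benjamini-Hochberg, limit 0.05), separately by experiment, and in 1 model of 12 mice for the difference. The 95% intervals come from that fit. The code was tested on simulated data. Alternatives were DESeq2 1.42.0, other size factors, other read limits, 1 model, the test of the methods and leaving out each mouse. Floors of 3 reads cover counting error only. Sites were searched in the longest 3′ UTR that shares the stop of a main coding form (GENCODE M1, mm9). Python 3.11.15, pandas 2.3.3, scipy 1.17.1 and matplotlib 3.10.9 were used. The receptors and all lists were chosen with earlier results of these data known. Text names all 7 receptors, the 3 highest and 3 lowest signalling genes per experiment, any that passed, and the 2 genes most like each receptor above 100 reads.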

Additional observations from a re-analysis of the deposited data

Results flagged for a closer look

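Rgs14 and Prkca, both on the list of signalling partners, lay higher in every sponge mouse than in every GFP Ctrl mouse of the miR-9 experiment and lower in every sponge mouse of the miR-34 experiment. They were picked for this opposite order among the receptors and the named signalling genes. A large difference between the sponge effects therefore follows in part from the choice. The shares of all genes with such an order, or with GFP Ctrl mice apart between experiments, were not counted. For Rgs14 the difference between the sponge effects was 0.60 ± 0.10 (SE, log2), with an adjusted p of 0.415 in edgeR, 0.00158 in DESeq2, 0.00261 without a read limit and 0.454 with total counts only. The GFP Ctrl mice of both experiments did not overlap in Rgs14 (92.8 to 103 and 115 to 131 CPM), while the sponge mice did (105 to 126 and 94.2 to 105 CPM). For Prkca the difference was 0.38 ± 0.11 (SE, log2), with an adjusted p of 0.704 in edgeR, and 0.164 to 0.681 in the alternatives. Prkca was at 575 to 646 CPM in GFP Ctrl and 652 to 807 CPM after GFP-miR-9sp, and at 649 to 726 CPM in GFP Ctrl and 615 to 643 CPM after GFP-miR-34sp.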

How the results depend on the processing

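No receptor gene had an adjusted p under 0.05 in edgeR or DESeq2 under any alternative, and the unadjusted test of the methods passed Grm5 alone, in the miR-9 experiment (log2 ratio −0.30). No paired analysis was possible because sponge and GFP Ctrl mice of an experiment share no mouse number. The number of genes called in the miR-9 experiment, 0, was 2 with DESeq2, 2 without a read limit, 0 to 1 with 1 mouse left out and 185 with the test of the methods, and for RefSeq entries it was 2, 2 and 0 to 1. In the miR-34 experiment 8 genes became 36 with DESeq2, 4 with its size factors in edgeR, 4 with total counts only, 81 without a read limit, 0 at a limit of 100 reads, 0 in 1 model of 12 mice, 251 with the test of the methods and 0 to 57 with 1 mouse left out, 57 being without GFP Ctrl mouse 10, 1 without GFP Ctrl mouse 8 and 0 without GFP Ctrl mouse 4 or any of the sponge mice. There, 4 entries became 37 with DESeq2, 140 without a read limit and 0 to 60 with 1 mouse left out. Genes called for the difference between sponges, 0, became 5 with DESeq2 and 4 without a read limit. Total counts only moved the median log2 fold change of all genes in the miR-9 experiment by less than 0.1.

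Small effects changed sign in 21 of 171 recalculated receptor values, none of them called. In the miR-9 experiment, leaving out 1 mouse gave −0.098 to 0.043 in Grm2, −0.036 to 0.034 in Grm3 and −0.17 to 0.028 in Grm8, and 1 model gave 0.00047 in Grm3. In the miR-34 experiment it gave −0.11 to 0.13 in Grm5, −0.020 to 0.16 in Grm2, −0.058 to 0.026 in Grm3 and −0.16 to 0.17 in Grm4 (−0.16 to 0.18 on its longer entry). There, Grm5 was 0.0028 with total counts only and 0.0021 with the test of the methods, and Grm4 −0.0050 with that test. The difference between sponges in Grm3 was −0.011 with total counts only and −0.00012 without a read limit. Of the other named genes, Adcy8 ranged from −0.38 to 0.20, Rgs7 from −0.093 to 0.49 and Dlgap1 from −0.011 to 0.56 with 1 mouse left out. The causes were not tested. With 51 to 130 reads of Grm5 and 70 to 336 of Grm4 per mouse, and with a wide spread of Grm8 between mice, their intervals were wider than those of Grm2, Grm3 and Grm7 in both experiments.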
